A study of Mus musculus with 44 samples.

Results

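The 43 genes described here act in cell division and DNA replication, and they were taken by gene symbol from 4 tables of RNA-seq read counts that each list 24940 genes. They comprise 21 genes of mitosis, 13 genes of replication and nucleotide supply and 9 genes that control entry into and progress through the cycle. All 43 had enough reads to be tested in every table. According to the methods, the cells were bone marrow-derived macrophages (BMDMs) of C57Bl6 mice, grown out of marrow with macrophage colony-stimulating factor. These cells were held in low serum before treatment, and 44 libraries formed 22 groups of 2. The names of the RANKL libraries call their cells osteoclasts. In the first table, WT macrophages carried NCoR flox/flox alleles, and NKO macrophages carried the same alleles with LysMCre, a Cre recombinase driven from the lysozyme 2 locus in myeloid cells. NCoR is a corepressor that works with the histone deacetylase HDAC3. Both genotypes received vehicle (Veh), KLA, PolyIC, IFNb or IL4 for 6 h, or RANKL for 12 h. KLA is Kdo2 lipid A, an agonist of the lipopolysaccharide receptor TLR4, and poly I:C is a double-stranded RNA analog that activates TLR3. IFNb is interferon beta, and RANKL is the factor that drives osteoclast formation. In the second table, wild-type macrophages received Veh, KLA, or KLA with the HDAC3 inhibitor RGFP966 for 6 h. The third table held Pgc1b flox/flox macrophages with and without LysMCre (Pgc1b_flox_Cre and Pgc1b_flox), each with Veh or KLA for 6 h. Pgc1b, listed as Ppargc1b, encodes the coactivator PGC1β. In the fourth table, wild-type macrophages received DMSO with Veh, DMSO with KLA, or TBK1i with KLA for 6 h, where TBK1i is GSK8612, an inhibitor of the kinase TBK1. According to the methods, both inhibitors were added when serum was lowered, before KLA. No group received an inhibitor without KLA, so an effect before KLA and one on the KLA response cannot be told apart. The labels do not say whether the 2 libraries of a group came from separate animals, so p-values measure the spread between libraries, which may be technical.

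Cells enter the cycle when cyclins D and E and their kinases inactivate the retinoblastoma proteins and free the E2F factors, which switch on the genes of DNA synthesis. The MCM proteins form the replicative helicase, Pcna the sliding clamp, Cdc6 and Cdt1 load the helicase onto origins, and Rrm1, Rrm2 and Tyms supply nucleotides. Genes of mitosis come on later, through B-MYB (Mybl2) and Foxm1 bound with the MuvB complex, and the inhibitor p21 (Cdkn1a) holds the cyclin-dependent kinases back. Macrophages in culture divide under macrophage colony-stimulating factor, and ligands of Toll-like receptors are known to stop that division. A transcript level says how much mRNA was present and does not count dividing cells. In these bulk samples a smaller number of cycling cells and less RNA per cycling cell cannot be told apart.

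The short elements that promoters of cell cycle genes are known for were found in different shares by role. RefSeq promoter windows, from 250 bases before to 50 bases after a transcription start on GRCm38.p6, the assembly behind mm10, were at hand for 34 of the 43 members. Aurkb, Ccna2, Ccnd1, Ccne2, Foxm1, Gins2, Kif20a, Mcm4 and Tpx2 had no entry. Both strands were searched, a gene with several windows counted once, and no motif searched contains another. The CHR element of mitotic promoters, TTTGAA or TTTAAA, lay in 15 of 17 mitosis genes (88.2%), 3 of 11 replication genes (27.3%) and 2 of 6 control genes (33.3%), against 27.6% of all 32851 windows. E2F-type sites, TTTCCCGC or TTTGGCGC, lay in 6 of 11 replication genes (54.5%) and in 0 of 17 mitosis genes and 0 of 6 control genes, against 1.56% of all windows. The CCAAT box was in 88.2% of the mitosis genes, 72.7% of the replication genes, 16.7% of the control genes and 37.4% of all windows. A match is a description of letters and not evidence of a bound site. The promoters of Ccnb2, Mki67, Mcm6, Mcm5 and Cdkn1a are printed as examples, 5′ to 3′ in the direction of the gene. Matches to the 3 motif sets are in capitals. Ccnb2, the cyclin B2 gene, lies at chr9:70421505-70421804, minus strand, and its window shows 3 CCAAT boxes between 2 CHR elements. Mki67, the proliferation antigen, lies at chr7:135716330-135716629, minus strand. The helicase genes Mcm6, at chr1:128359656-128359955, minus strand, and Mcm5, at chr8:75109259-75109558, plus strand, are replication genes with E2F-type sites. No such site was found in Mcm2, Pcna, Rrm1, Rrm2 or Tyms. Cdkn1a, at chr17:29093519-29093818, plus strand, is shown as the member that moved most often against the rest, and it held no match.
Ccnb2: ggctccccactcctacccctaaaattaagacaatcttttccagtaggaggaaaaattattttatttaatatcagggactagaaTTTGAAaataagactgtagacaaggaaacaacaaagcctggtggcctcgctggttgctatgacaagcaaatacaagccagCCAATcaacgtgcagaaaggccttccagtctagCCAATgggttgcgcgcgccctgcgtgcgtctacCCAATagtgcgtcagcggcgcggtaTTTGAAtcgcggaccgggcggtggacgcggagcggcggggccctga
Mki67: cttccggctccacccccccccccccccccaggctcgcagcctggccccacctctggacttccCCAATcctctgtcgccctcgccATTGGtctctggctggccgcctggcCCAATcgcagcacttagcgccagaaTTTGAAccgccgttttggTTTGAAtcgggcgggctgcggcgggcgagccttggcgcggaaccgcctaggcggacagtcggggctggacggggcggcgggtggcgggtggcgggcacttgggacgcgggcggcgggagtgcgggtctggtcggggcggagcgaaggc
Mcm6: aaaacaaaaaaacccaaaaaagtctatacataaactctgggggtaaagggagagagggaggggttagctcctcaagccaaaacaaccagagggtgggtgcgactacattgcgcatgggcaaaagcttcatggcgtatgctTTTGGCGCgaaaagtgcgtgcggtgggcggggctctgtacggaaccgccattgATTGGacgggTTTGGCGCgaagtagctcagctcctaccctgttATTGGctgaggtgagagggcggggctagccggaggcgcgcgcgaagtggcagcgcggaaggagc
Mcm5: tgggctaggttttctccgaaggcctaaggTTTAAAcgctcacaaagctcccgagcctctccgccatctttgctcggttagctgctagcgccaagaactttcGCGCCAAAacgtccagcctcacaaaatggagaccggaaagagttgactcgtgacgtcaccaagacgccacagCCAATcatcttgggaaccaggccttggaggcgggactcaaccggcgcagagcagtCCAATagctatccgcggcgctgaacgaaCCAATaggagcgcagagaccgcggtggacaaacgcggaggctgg
Cdkn1a: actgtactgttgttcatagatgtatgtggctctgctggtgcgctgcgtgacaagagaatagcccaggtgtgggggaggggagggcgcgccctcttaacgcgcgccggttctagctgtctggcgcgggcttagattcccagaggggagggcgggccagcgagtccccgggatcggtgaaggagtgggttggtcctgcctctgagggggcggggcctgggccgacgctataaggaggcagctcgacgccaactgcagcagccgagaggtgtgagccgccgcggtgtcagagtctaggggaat

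The libraries held 8323493 to 16783155 reads in genes. Ncor1 was at 56.4 and 57.6 CPM (counts-per-million of the library, TMM-scaled) in the NKO_Veh libraries and 162 and 169 CPM in the WT_Veh libraries. Ppargc1b was at 3.75 and 3.41 CPM in Pgc1b_flox_Cre_Veh and 4.38 and 2.88 CPM in Pgc1b_flox_Veh, so its RNA count did not mark the Cre libraries. For the protein, the paper gives an immunoblot of PGC1β in BMDMs of both genotypes. Summed CPM of 8 macrophage markers lay at 8159 and 8788 in WT_Veh and at 4596 and 4545 in WT_RANKL, whose library names call the cells osteoclasts, while 10 neutrophil-lineage markers summed to 1343 to 1905 CPM in the 4 RANKL libraries and to at most 28.6 CPM in any other. Date stamps in the library names differed within the first table: WT_KLA, NKO_KLA and the RANKL libraries each carried a date of their own, and all its other libraries shared one. The female transcript Xist had 0 counts in both NKO_KLA libraries and at least 5206 counts in every other library of that table. Xist had 0 or 1 count in every library of the Pgc1b table and at least 6935 counts in those with RGFP966 and TBK1i. Members called higher or lower passed an adjusted p under 0.05 in the quasi-likelihood test of edgeR, adjusted by Benjamini-Hochberg over all 12196 to 13407 genes tested in a table, and a fold change over 1.5. "Rose" and "fell" are used for such calls only, fold changes are log2 values ± SE, and the percentages beside the counts are the shares of all tested genes called in the same direction. Reads were counted by strand according to the methods, and on the same strand small parts of the exons of 3 members, Top2a, Mcm7 and Foxm1, overlap those of another gene.

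KLA lowered most of these genes in each of the 4 tables, and each table had its own vehicle libraries. In WT macrophages 31 members fell and 7 rose (background 32.3% lower and 25.4% higher), with a median log2 fold change of -1.58 against -0.14 over all genes. In the wild-type cells of the RGFP966 series 32 fell and 6 rose (32.2% and 27.9%), with a median of -1.88. Pgc1b_flox macrophages gave 38 lower and 1 higher members (25.7% and 22.8%), and the DMSO-treated cells 32 lower and 6 higher (29.3% and 29.6%). Their medians were -2.21 and -1.57. Of the 43 members, 27 (62.8%) fell in all 4 tables, compared with 19.1% of the 11757 genes tested in all of them. They were 15 of the 21 mitosis genes, 8 of the 13 replication genes and 4 of the 9 control genes.

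**Figure D1:**
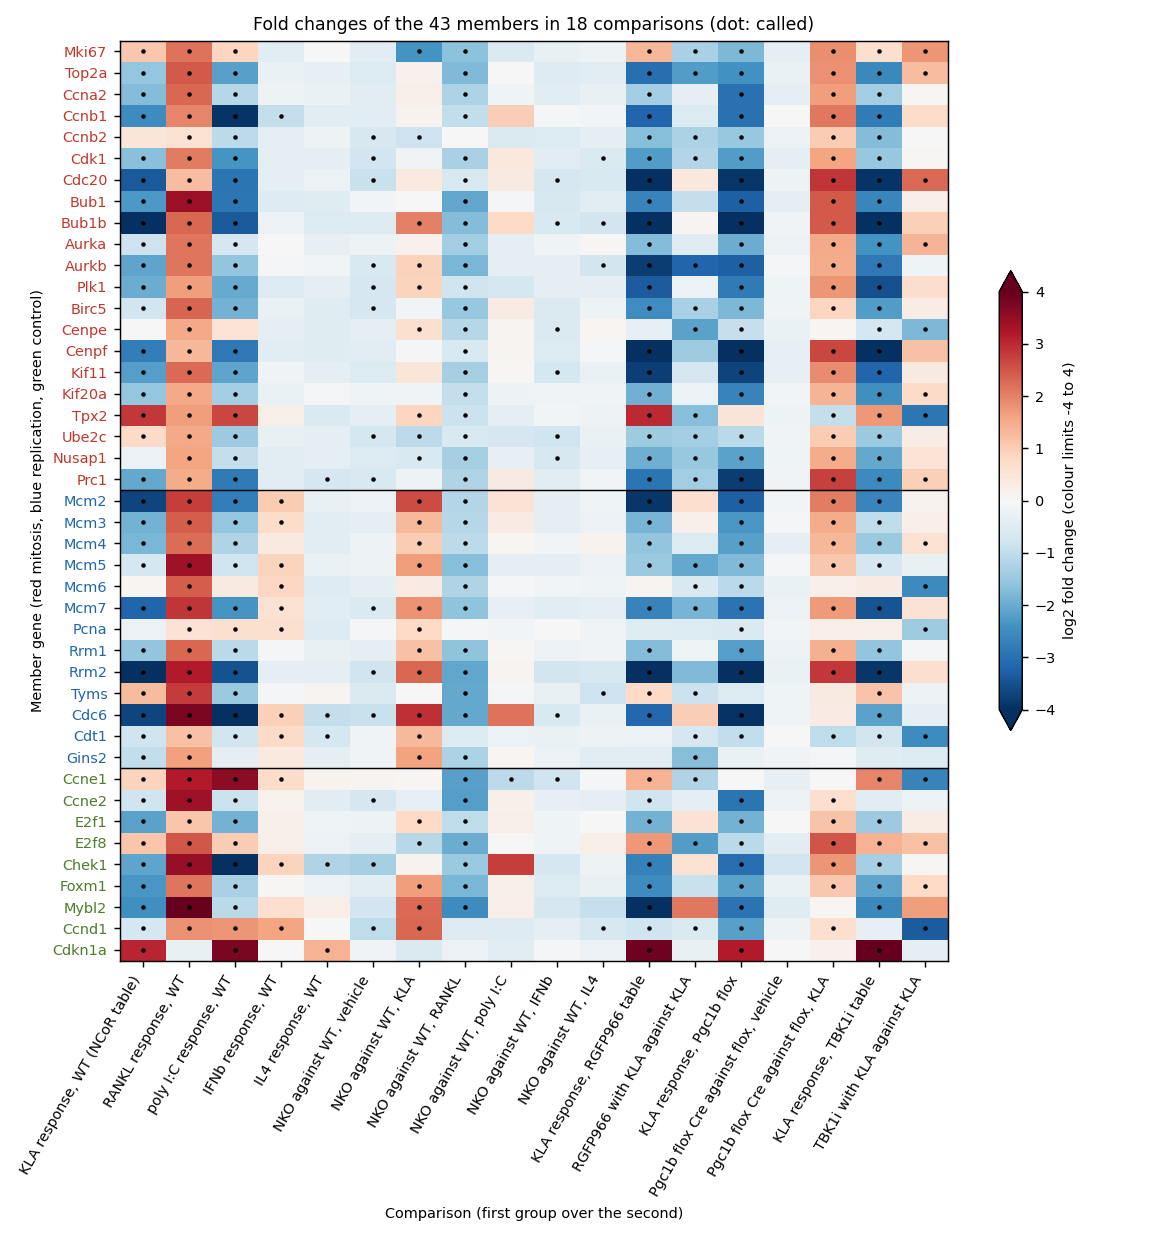
Log2 fold changes of the 43 members (rows, by role) in the pairwise comparisons of the 4 tables (columns), on a color scale in log2 units, with a dot where the member was called. In the 4 KLA columns most members are lower, Cdkn1a is higher in all and Mki67 in 3 of them, and in the WT RANKL column 42 of 43 members are higher.

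The spindle checkpoint kinase gene Bub1b went from 11.2 and 8.48 CPM in WT_Veh to 0.328 and 0.500 CPM in WT_KLA (log2 fold change -4.54 ± 0.40, adjusted p = 9.2e-16). In Pgc1b_flox cells it went from 36.4 and 30.7 to 1.25 and 2.64 CPM (log2 fold change -4.14 ± 0.25, adjusted p = 5.9e-17). The other tables gave log2 fold changes of -4.61 and -4.36. After KLA Bub1b was near the floor, with 2 and 3 counts in WT_KLA and 0 and 7 in KLA of the RGFP966 table. Cdc20, the activator of the anaphase-promoting complex, fell in WT from 6.95 and 5.06 to 0.983 and 0.167 CPM (log2 fold change -3.35 ± 0.42, adjusted p = 1.6e-10), and the kinetochore gene Cenpf fell by 4.47 to 4.85 on the log2 scale in the other 3 tables. Kif11, Kif20a, Prc1, Plk1, Aurka, Aurkb, Birc5, Top2a, Bub1, Cdk1, Ccna2 and Ccnb1, all mitosis genes by role, also fell in every table. In WT the call of Birc5 was lost without WT_Veh replicate 1 (-0.31) or WT_KLA replicate 2 (-0.52), and that of Aurka without WT_KLA replicate 2 (-0.74).

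Among the replication genes, Rrm2, the regulated subunit of ribonucleotide reductase, was at 15.6 and 12.5 CPM in WT_Veh and 0.983 and 0.667 CPM in WT_KLA (log2 fold change -4.07 ± 0.48, adjusted p = 3.3e-07). The helicase gene Mcm2 went from 16.3 and 21.6 to 1.80 and 1.17 CPM (log2 fold change -3.66 ± 0.26, adjusted p = 5.9e-19), and Mcm7 from 21.1 and 16.4 to 2.46 and 1.67 CPM (log2 fold change -3.17 ± 0.25, adjusted p = 5.6e-16). The helicase was not lowered evenly. Mcm5 fell less in WT, from 17.1 and 22.4 to 11.8 and 12.5 CPM (log2 fold change -0.70 ± 0.22, adjusted p = 0.0072), and Mcm6 was not called there (76.4 and 73.8 CPM against 84.7 and 73.5 CPM, log2 fold change 0.08 ± 0.11, adjusted p = 0.54). The call of Mcm5 was lost without WT_Veh replicate 2 (-0.50) or without WT_KLA replicate 1 (-0.66). Mcm3, Mcm4, Rrm1 and Cdc6 fell in all 4 tables. Pcna was called in Pgc1b_flox cells alone, where the call was lost without Pgc1b_flox_Veh replicate 1 (-0.57), and in WT it was at 143 and 139 CPM in vehicle and 123 and 115 CPM in KLA.

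The control genes split. Cdkn1a, the p21 gene, was the single member that rose in all 4 tables, and in WT it went from 232 and 237 to 1868 and 1965 CPM (log2 fold change 3.03 ± 0.06, adjusted p = 2.6e-49). Its rise was 3.90, 3.18 and 4.06 in the other tables. Foxm1 and E2f1 fell in all 4, with log2 fold changes of -2.33 and -2.14 in WT, as did Mybl2 and Chek1, though with DMSO the call of Chek1 was lost without any 1 of the 4 libraries (-1.37 to -1.30). Cyclin D1 (Ccnd1) went from 113 and 136 to 78.8 and 73.7 CPM in WT (log2 fold change -0.71 ± 0.08, adjusted p = 1.4e-11) and from 508 and 504 to 117 and 109 CPM in Pgc1b_flox cells (log2 fold change -2.16 ± 0.07, adjusted p = 2.0e-25), but was not called in DMSO-treated cells (log2 fold change -0.32 ± 0.08, adjusted p = 1.3e-04). In WT its call was lost without WT_Veh replicate 2 (-0.57).

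Mki67, the gene of the Ki-67 antigen by which cycling cells are often counted, went against the other mitosis genes in 3 of the 4 tables. It rose from 56.5 and 46.5 to 113 and 107 CPM in WT (log2 fold change 1.09 ± 0.10, adjusted p = 1.3e-11), from 45.4 and 49.6 to 116 and 123 CPM in the RGFP966 series (log2 fold change 1.33 ± 0.07, adjusted p = 9.6e-29) and from 74.9 and 80.8 to 112 and 131 CPM with DMSO (log2 fold change 0.65 ± 0.06, adjusted p = 1.7e-30). In Pgc1b_flox cells it fell, from 251 and 197 to 60.4 and 69.2 CPM (log2 fold change -1.79 ± 0.11, adjusted p = 2.9e-11). The KLA levels of the Pgc1b_flox cells lay below those of the other 3 tables while their vehicle levels lay above. Sex, read from Xist, differed between the Pgc1b_flox libraries and the others compared here, and its part was not tested. Tpx2, which activates Aurora A on the spindle, was at 15.8 and 11.3 CPM in WT_Veh and 96.1 and 95.2 CPM in WT_KLA (log2 fold change 2.82 ± 0.10, adjusted p = 3.4e-33), and rose by 2.997 and 1.75 in the tables with RGFP966 and TBK1i. The thymidylate synthase gene Tyms (WT 1.28), the cyclin E1 gene Ccne1 (WT 0.89) and the atypical E2F gene E2f8 (WT 1.12) rose in the same 3 tables. The ubiquitin-conjugating enzyme gene Ube2c rose in WT by 0.75 and fell in the other tables. The call of Mki67 with DMSO was lost without DMSO_KLA replicate 2 (0.53), and that of Ube2c in WT without WT_Veh replicate 2 (0.54). No exon of Mki67 or Tpx2 overlaps another annotated gene.

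Genes of the pathway outside the 43 members showed the same division. Of 46 other mitosis genes 36 fell and 3 rose in WT after KLA, and of 41 other replication genes 31 fell and 3 rose. Cyclin D2 (Ccnd2) went from 11.8 and 12.9 CPM in WT_Veh to 802 and 809 CPM in WT_KLA (log2 fold change 6.02). The retinoblastoma relative Rbl1, the securin gene Pttg1 and the replication-fork gene Timeless also rose, by 3.16, 2.75 and 2.51. WT_KLA and WT_Veh differed in date stamp, and the summed CPM of 4 stroma markers was 1.90 and 1.59 in WT_KLA and 97.2 and 88.4 in WT_Veh. Their part in the result was not tested, and within each of the other 3 tables KLA and vehicle libraries shared a date.

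Poly I:C gave much the same picture in WT, with 33 members lower and 7 higher (background 25% and 22.2%) and a median log2 fold change of -1.35, and its libraries shared the date of the vehicle. By role, 18 of 21 mitosis genes, 10 of 13 replication genes and 5 of 9 control genes fell. Bub1b was at 0.595 and 1.32 CPM after poly I:C (log2 fold change -3.35 ± 0.29, adjusted p = 1.2e-15), Cdc20 at 0.833 and 0.721 CPM (log2 fold change -2.93 ± 0.35, adjusted p = 4.6e-11) and Rrm2 at 1.31 and 1.20 CPM (log2 fold change -3.47 ± 0.39, adjusted p = 1.9e-07). Each lay far below both vehicle libraries. Mcm5 fell from 17.1 and 22.4 to 12.02 and 10.9 CPM (log2 fold change -0.78 ± 0.20, adjusted p = 0.002), a call that was lost without WT_Veh replicate 2 (-0.58). Cdkn1a reached 3277 and 3105 CPM (log2 fold change 3.77 ± 0.06, adjusted p = 4.9e-53), and Ccne1 rose from 3.78 and 3.69 to 42.6 and 46.04 CPM (log2 fold change 3.56 ± 0.15, adjusted p = 2.0e-30). Mki67 rose to 93.9 and 92.4 CPM (log2 fold change 0.86 ± 0.09, adjusted p = 1.9e-09), as did Tpx2 (2.67), E2f8 (1.00) and Pcna (0.63). Ccnd1 rose to 429 and 423 CPM (log2 fold change 1.77 ± 0.07, adjusted p = 7.1e-30), whereas after KLA it stood at 78.8 and 73.7 CPM, and the difference between the ligands was not tested. Among the other genes Ccnd2 rose by 5.11 and Rbl1 by 3.65 on the log2 scale, and 39 of 46 other mitosis genes fell.

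Interferon beta raised genes of DNA replication and cyclin D1. Of the 13 replication genes 8 rose and 0 fell (median 0.63), of the 21 mitosis genes 0 rose and 1 fell (median -0.35), and of the 9 control genes 3 rose. Over all members this made 11 higher and 1 lower, against a background of 4.09% and 2.37%. Mcm2 went from 16.3 and 21.6 to 37.05 and 39.7 CPM (log2 fold change 1.02 ± 0.10, adjusted p = 1.2e-11), Mcm5 from 17.1 and 22.4 to 39.4 and 33.3 CPM (log2 fold change 0.88 ± 0.14, adjusted p = 1.1e-04) and Cdc6 from 3.71 and 2.81 to 6.22 and 6.32 CPM (log2 fold change 0.94 ± 0.21, adjusted p = 4.2e-04). In all of these both interferon libraries were above both vehicle libraries. Mcm3, Mcm6, Mcm7, Pcna and Cdt1 rose by 0.61 to 0.83. The largest rise was that of Ccnd1, from 113 and 136 to 357 and 384 CPM (log2 fold change 1.57 ± 0.06, adjusted p = 3.2e-26), and Ccne1 (0.74) and Chek1 (0.90) rose with it. Ccnb1 was the mitosis gene that fell (3.44 and 2.33 CPM to 1.62 and 1.32 CPM, log2 fold change -0.96 ± 0.31, adjusted p = 0.016). Without WT_Veh replicate 1 or WT_IFNb replicate 2 the calls of Ccnb1 (-0.65 and -0.83) and Chek1 (0.79 and 0.77) were lost, and that of Mcm7 was lost without WT_Veh replicate 2 (0.43) or WT_IFNb replicate 1 (0.54). Mki67 was at 40.4 and 35.4 CPM and was not called (log2 fold change -0.44 ± 0.10, adjusted p = 9.0e-04), and Cdkn1a was at 238 and 237 CPM (log2 fold change 0.02 ± 0.05, adjusted p = 0.84). Of the other replication genes 5 of 41 rose, led by Timeless (1.62) and Dtl (1.23), and 4 of 46 other mitosis genes fell.

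**Figure D2:**
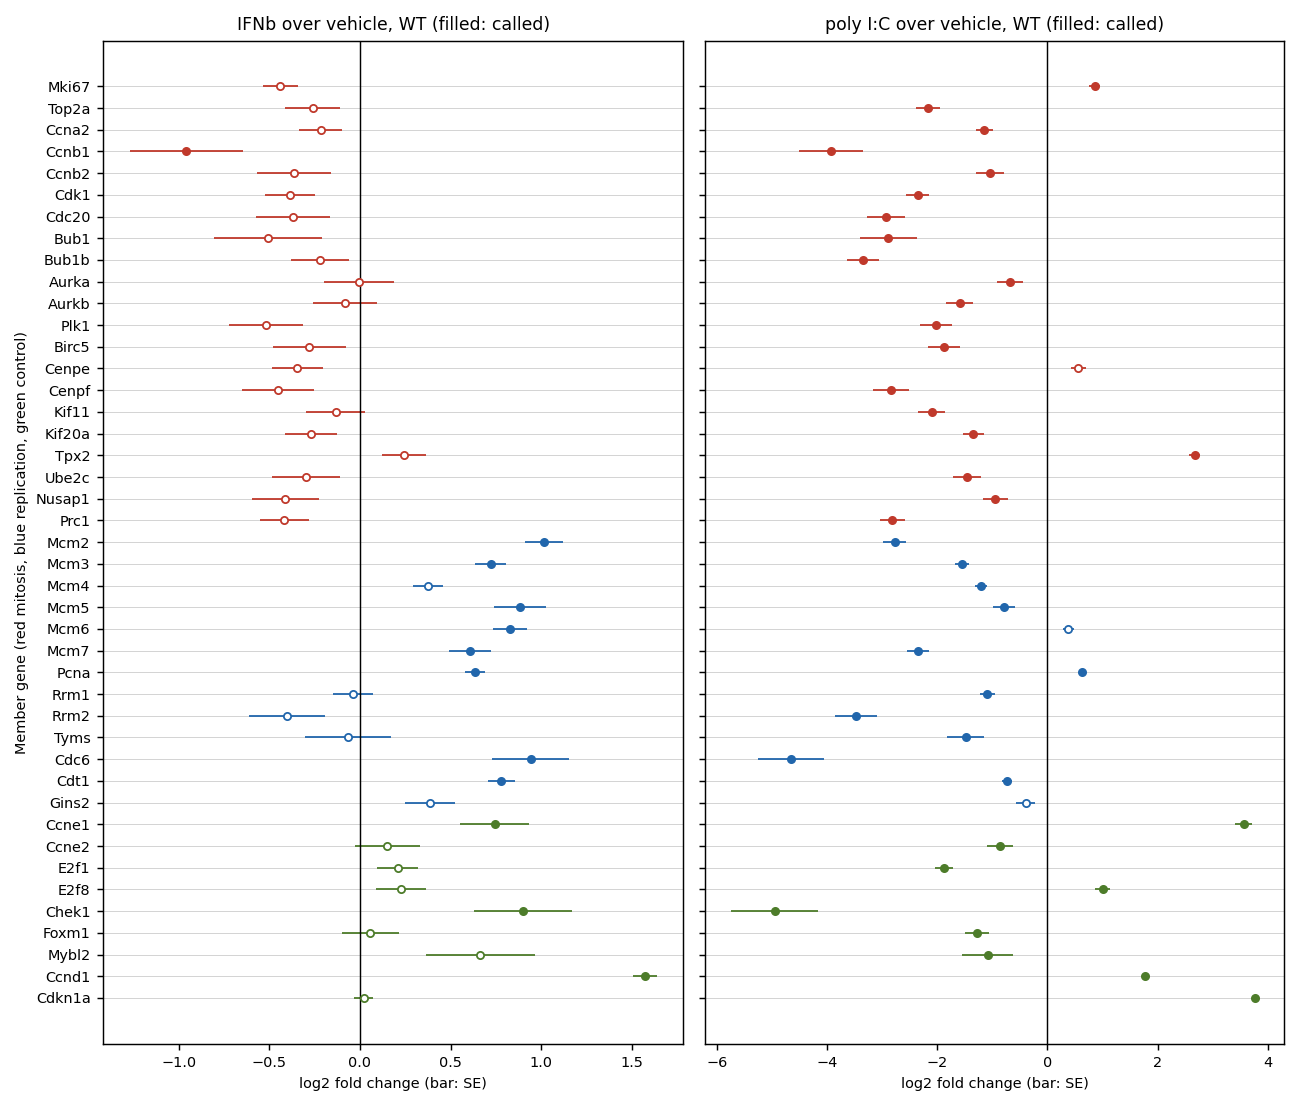
Log2 fold changes over vehicle in WT macrophages for each member after IFNb and after PolyIC, both set against the same WT_Veh libraries, in red for mitosis, blue for replication and green for control, with bars of 1 SE and filled points for calls. Replication genes such as Mcm2 and Mcm5 lie above 0 after IFNb and below 0 after PolyIC, Ccnd1 lies above 0 after both, and Cdc6 and Chek1 rest on at most 2 counts a library after PolyIC.

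IL4 moved few members past the call limits, although 38 of 43 lay below 0 (median log2 fold change -0.35 against -0.01 over all genes). It raised Cdkn1a from 232 and 237 to 627 and 589.7 CPM (log2 fold change 1.38 ± 0.05, adjusted p = 4.0e-31) and lowered 4 members, against a background of 6.63% higher and 6.46% lower, so that the share of members called was near that of all genes. These were Prc1, which bundles spindle microtubules (14.5 and 12.6 CPM to 8.41 and 8.61 CPM, log2 fold change -0.67 ± 0.14, adjusted p = 1.4e-04), the licensing genes Cdt1 (37.3 and 38.2 CPM to 23.7 and 22.98 CPM, log2 fold change -0.69 ± 0.09, adjusted p = 5.5e-10) and Cdc6 (-0.96), and the checkpoint kinase gene Chek1 (-1.20). Of 41 other replication genes 9 fell and 1 rose, and of 46 other mitosis genes 4 fell and 0 rose. Mki67 (55.8 and 48.6 CPM, log2 fold change 0.02 ± 0.09, adjusted p = 0.92), Mcm5 (log2 fold change -0.28 ± 0.17, adjusted p = 0.24) and Ccnd1 (log2 fold change -0.02 ± 0.07, adjusted p = 0.89) were not called. The count rested on single libraries: 3 members were called without WT_Veh replicate 1, 13 without WT_Veh replicate 2 and 11 without WT_IL4 replicate 1. Prc1 (-0.56) and Cdc6 (-0.74) were not called without WT_Veh replicate 1, and Chek1 was not called without WT_Veh replicate 2 (-1.09) or either WT_IL4 library (-1.22 and -1.19).

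RANKL libraries held nearly all members above the vehicle level. In WT 42 of the 43 members rose and 0 fell (background 24.1% higher and 19.8% lower), with a median log2 fold change of 2.16, but the RANKL cells were taken at 12 h and the vehicle at 6 h. Mybl2 went from 1.72 and 1.09 to 29.6 and 28.3 CPM (log2 fold change 4.35 ± 0.21, adjusted p = 1.9e-27), Chek1 from 1.99 and 2.33 to 25.1 and 23.7 CPM (log2 fold change 3.49 ± 0.21, adjusted p = 2.2e-22) and Ccne2, the cyclin E2 gene, from 7.50 and 6.02 to 69.9 and 71.01 CPM (log2 fold change 3.38 ± 0.14, adjusted p = 7.1e-30). Replication genes were raised as strongly. Cdc6 rose to 45.5 and 44.1 CPM (log2 fold change 3.78 ± 0.17, adjusted p = 7.4e-29), Mcm5 to 212 and 204 CPM (log2 fold change 3.40 ± 0.12, adjusted p = 4.9e-15) and Rrm2 to 123 and 130.1 CPM (log2 fold change 3.17 ± 0.16, adjusted p = 1.4e-12). Among mitosis genes the checkpoint kinase gene Bub1 rose from 4.75 and 4.24 to 47.2 and 49.9 CPM (log2 fold change 3.43 ± 0.21, adjusted p = 7.2e-15), and the topoisomerase gene Top2a to 216 and 246 CPM (log2 fold change 2.46 ± 0.13, adjusted p = 1.1e-10). Mki67 was at 221 and 239 CPM (log2 fold change 2.16 ± 0.08, adjusted p = 3.6e-20) and Ccnd1 at 421 and 457 CPM (log2 fold change 1.82 ± 0.06, adjusted p = 4.2e-30). The exception was Cdkn1a, at 189.8 and 189.7 CPM against 232 and 237 CPM in vehicle (log2 fold change -0.30 ± 0.05, adjusted p = 1.4e-06). Of 6 other inhibitors 3 fell, among them Cdkn1b (p27, -1.56) and Cdkn1c (p57, -1.65), and 1, Cdkn2c (0.59), rose, while 41 of 46 other mitosis genes and 40 of 41 other replication genes rose.

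The RANKL result in WT cannot be told apart from the date, the later time and any difference in culture. The methods describe a separate osteoclast culture, with no step of low serum, and the labels do not say which culture the RANKL libraries had. Neutrophil-lineage markers, at 1486 and 1343 CPM in WT_RANKL against 8.14 and 3.67 CPM in WT_Veh, moved with the members. All 4 lymphocyte and all 5 stroma markers tested rose, and 6 of 8 macrophage markers fell. Of 6 progenitor markers 5 rose and 1 fell, while 4 summed to 35.3 and 32.4 CPM against 59.1 and 47.5 CPM in WT_Veh. Of 6 osteoclast markers tested 4 rose and 1 fell, while 7 summed to 215 and 213 CPM against 1070.1 and 878 CPM in WT_Veh. The part of these markers was not tested. Of 35 members that shared a transcript in all tables, 33 were higher than WT_Veh in a joint fit of the 44 libraries, and 32 were higher than the vehicle cells of the RGFP966 and of the TBK1i tables. Against Pgc1b_flox_Veh, whose libraries unlike WT_RANKL had almost no Xist, only 14 were higher and 3 were lower. Mki67 was then at a log2 difference of -0.01 and Mcm5 at 1.73.

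Within RANKL, where both genotypes shared date and time, NCoR deletion went with lower levels of nearly all members. In NKO_RANKL 38 members were lower than in WT_RANKL and 0 higher (background 6.99% lower and 6.21% higher), with a median of -1.30. Mybl2 was at 5.51 and 4.45 CPM in NKO against 29.6 and 28.3 CPM in WT (log2 fold change -2.53 ± 0.18, adjusted p = 2.0e-18), Ccne2 at 18.1 and 12.4 CPM (log2 fold change -2.20 ± 0.13, adjusted p = 2.4e-21) and Ccne1 at 8.77 and 6.28 CPM against 31.4 and 36.5 CPM (log2 fold change -2.16 ± 0.14, adjusted p = 8.8e-20). The groups did not overlap in any of these. Rrm2 was at 35.3 and 23.99 CPM (log2 fold change -2.08 ± 0.15, adjusted p = 2.0e-09), Tyms at 7.59 and 4.86 CPM against 26.5 and 25.7 CPM (log2 fold change -2.05 ± 0.17, adjusted p = 2.0e-15) and Mcm5 at 74.3 and 53.4 CPM (log2 fold change -1.70 ± 0.11, adjusted p = 3.1e-10). Mitosis genes showed the same, with Bub1 at 13.9 and 9.11 CPM (log2 fold change -2.06 ± 0.19, adjusted p = 4.3e-10), Aurora B (Aurkb) at 9.22 and 8.71 CPM against 31.3 and 32.1 CPM (log2 fold change -1.82 ± 0.15, adjusted p = 8.7e-16) and Mki67 at 80.97 and 64.8 CPM (log2 fold change -1.65 ± 0.08, adjusted p = 3.6e-16). The 5 members not called were Ccnb2 (-0.02), Pcna (-0.03), Cdt1 (-0.56), Ccnd1 (312 and 304 CPM, log2 fold change -0.51 ± 0.06, adjusted p = 1.2e-09) and Cdkn1a (log2 fold change -0.24 ± 0.06, adjusted p = 4.1e-04).

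The effect of the genotype in the RANKL libraries was larger than at vehicle for most members. Ligand, date, time and any difference in culture cannot be told apart in this difference. Tested as the difference between both effects, it was more negative for 29 members and more positive for 0 (background 6.97% and 7.26%). The difference was log2 difference -2.26 ± 0.25, adjusted p = 1.1e-10 for Ccne1, log2 difference -1.94 ± 0.34, adjusted p = 6.0e-05 for Bub1 and log2 difference -1.49 ± 0.20, adjusted p = 9.8e-06 for Mcm5. For Mki67 it was log2 difference -1.24 ± 0.13, adjusted p = 7.2e-09. In all 38 members lay below 0 and 5 above. Ccnd1 went the other way (log2 difference 0.50 ± 0.09, adjusted p = 3.4e-05) but under the fold limit. Cdkn1a was not called (log2 difference -0.09 ± 0.08, adjusted p = 0.43). Outside the members, 40 of 46 other mitosis genes and all 41 tested other replication genes were lower in NKO_RANKL. The neutrophil-lineage markers summed to 1905 and 1833 CPM in NKO_RANKL and 1486 and 1343 CPM in WT_RANKL, and 4 progenitor markers to 30.3 and 31.1 and 35.3 and 32.4 CPM. Macrophage markers summed to 5549 and 5954 CPM in NKO_RANKL and 4596 and 4545 CPM in WT_RANKL, with 3 of 8 higher and 0 lower. Of 6 osteoclast markers tested 2 were higher and 2 lower (7 summed to 289 and 315 CPM against 215 and 213 CPM). The part of these markers in the difference was not tested.

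**Figure D3:**
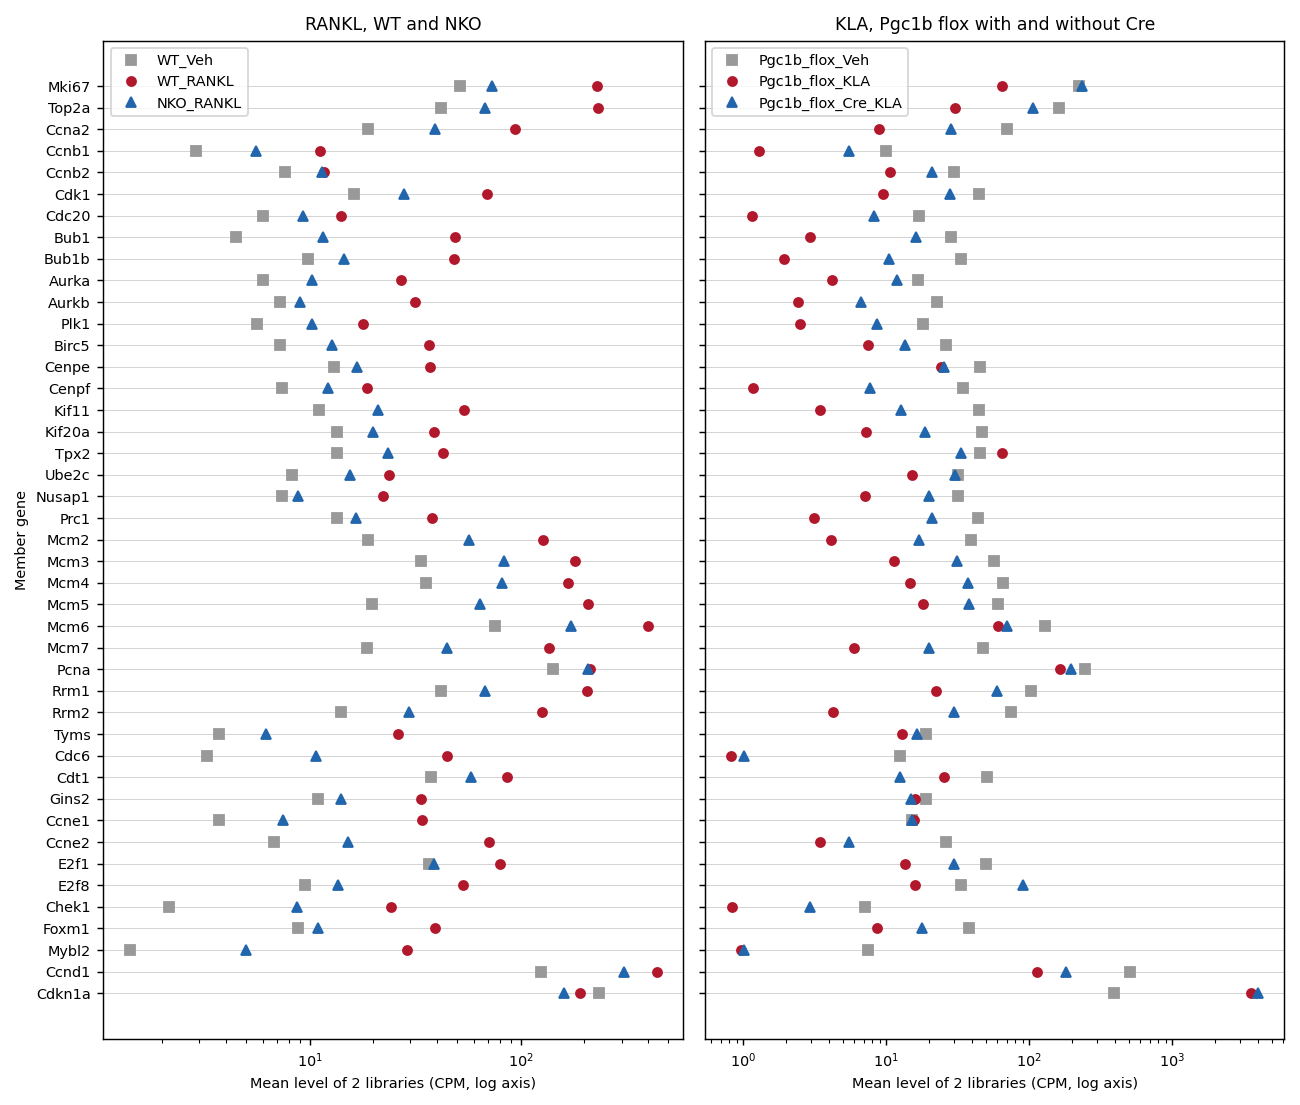
Mean CPM of 2 libraries (log axis) for each member in WT_Veh, WT_RANKL and NKO_RANKL (left) and in Pgc1b_flox_Veh, Pgc1b_flox_KLA and Pgc1b_flox_Cre_KLA (right). On the left 42 of 43 members, all but Cdkn1a, are highest in WT_RANKL, and on the right 38 members are lowest in Pgc1b_flox_KLA and 37 have Pgc1b_flox_Cre_KLA between it and Pgc1b_flox_Veh.

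At vehicle, 14 members were lower in NKO and 0 higher (background 3.8% lower and 2.4% higher), with a median of -0.43. Among members averaging at least 5 CPM in either group the drop was largest for Ccnd1, at 60.2 and 63.4 CPM in NKO_Veh against 113 and 136 CPM in WT_Veh (log2 fold change -1.01 ± 0.07, adjusted p = 1.1e-16). Cdc20 was at 3.16 and 3.25 CPM (log2 fold change -0.90 ± 0.22, adjusted p = 0.0012), Cdk1, the mitotic kinase, at 9.26 and 9.98 CPM against 17.4 and 15.2 CPM (log2 fold change -0.76 ± 0.14, adjusted p = 4.6e-05) and Rrm2 at 7.75 and 8.33 CPM (log2 fold change -0.80 ± 0.22, adjusted p = 0.012). Ccnb2, Aurkb, Plk1, Birc5, Ube2c, Prc1, Mcm7, Cdc6, Ccne2 and Chek1 were lower too. Mki67 (36.5 and 40.5 CPM, log2 fold change -0.41 ± 0.10, adjusted p = 0.0019), Mcm5 (log2 fold change -0.21 ± 0.16, adjusted p = 0.42) and Cdkn1a (log2 fold change -0.15 ± 0.05, adjusted p = 0.037) were not called. The count was 3 without WT_Veh replicate 1, when Ccnd1, Cdk1 and Chek1 were left and Cdc20 (-0.66) and Rrm2 (-0.63) were not called, and 7 without NKO_Veh replicate 2. Rrm2 was also not called without NKO_Veh replicate 1 (-0.76) or replicate 2 (-0.86). Markers of osteoclasts and macrophages moved with genotype. Of 6 osteoclast markers tested 4 were higher in NKO and 0 lower (7 summed to 1553 and 1511 CPM against 1070.1 and 878 CPM), and 4 of 8 macrophage markers were lower (7099 and 7317 CPM against 8159 and 8788 CPM). Osteoclast markers were also higher in NKO at poly I:C (5 of 6), IFNb (5 of 6) and IL4 (3 of 6). Their part in the lower levels of the members was not tested.

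At the other ligands of the same date, poly I:C, IFNb and IL4, between 1 and 8 members were called between the genotypes. At poly I:C 1 member was lower and 0 higher (background 2.92% and 3.01%), near the share of all genes, and it was Ccne1, at 21.4 and 21.3 CPM in NKO against 42.6 and 46.04 CPM in WT (log2 fold change -1.05 ± 0.12, adjusted p = 3.0e-10). Mki67 (60.6 and 65.01 CPM, log2 fold change -0.57 ± 0.10, adjusted p = 4.0e-05), Ccnd1 (300.3 and 292 CPM, log2 fold change -0.53 ± 0.06, adjusted p = 2.9e-09) and Cdkn1a (2379.6 and 2288 CPM, log2 fold change -0.45 ± 0.05, adjusted p = 1.1e-10) were below WT in both libraries but under the fold limit, and Mcm5 was not called (log2 fold change -0.37 ± 0.25, adjusted p = 0.37). Without NKO_PolyIC replicate 1 or replicate 2 the count was 2. Compared with the effect at vehicle, the difference was more positive for 4 members and more negative for 1 (background 2.13% and 1.1%). Over all genes 286 differed upward and 148 downward, and with DESeq2's size factors 227 and 185. Mcm3 (log2 difference 0.69 ± 0.18, adjusted p = 0.0084) and Ccne1 (log2 difference -1.15 ± 0.24, adjusted p = 4.3e-04) were among them, and the total was 8 without WT_Veh replicate 2, 3 without WT_PolyIC replicate 2 or NKO_PolyIC replicate 2 and 2 without NKO_PolyIC replicate 1. Mcm3 was not called without WT_PolyIC replicate 2 (0.48) or NKO_PolyIC replicate 1 (0.64).

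At IFNb 8 members were lower in NKO and 0 higher (background 1.94% and 1.86%), and 6 of them were mitosis genes. Ube2c was at 5.03 and 2.59 CPM in NKO against 7.32 and 6.02 CPM in WT (log2 fold change -0.80 ± 0.22, adjusted p = 0.0061), the spindle motor gene Kif11 at 6.10 and 6.40 CPM against 9.46 and 10.8 CPM (log2 fold change -0.69 ± 0.18, adjusted p = 0.0057) and Ccne1 at 3.33 and 3.96 CPM against 6.48 and 6.02 CPM (log2 fold change -0.78 ± 0.19, adjusted p = 0.0024). Cdc20, Bub1b, the kinetochore motor gene Cenpe, Nusap1 and Cdc6 were the others. Mki67 (log2 fold change -0.30 ± 0.11, adjusted p = 0.057), Mcm5 (log2 fold change -0.38 ± 0.14, adjusted p = 0.084), Ccnd1 (log2 fold change -0.37 ± 0.06, adjusted p = 7.2e-06) and Cdkn1a (log2 fold change -0.05 ± 0.05, adjusted p = 0.63) were not called. Each of the 8 calls was lost without at least 1 of the 4 libraries, and the count was 3 without WT_IFNb replicate 1 and 1 without NKO_IFNb replicate 1. Ube2c was not called without WT_IFNb replicate 1 (-0.65) or NKO_IFNb replicate 2 (-0.42), Kif11 without WT_IFNb replicate 2 (-0.60) or NKO_IFNb replicate 1 (-0.66), and Ccne1 without NKO_IFNb replicate 1 (-0.66). Set against the effect at vehicle, 1 member differed upward and 0 downward (background 0.552% and 0.0522%). It was Ccnd1 (log2 difference 0.64 ± 0.09, adjusted p = 1.8e-05), whose effect at vehicle was -1.01 and at IFNb -0.37, and without WT_Veh replicate 2 the count was 0.

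At IL4 5 members were lower in NKO and 0 higher (background 2.33% and 1.9%). Bub1b was at 4.38 and 3.68 CPM in NKO against 6.53 and 6.99 CPM in WT (log2 fold change -0.74 ± 0.20, adjusted p = 0.005), Aurkb at 3.69 and 4.46 CPM against 7.78 and 5.69 CPM (log2 fold change -0.72 ± 0.20, adjusted p = 0.0065) and Ccnd1 at 76.9 and 79.9 CPM against 131 and 115 CPM (log2 fold change -0.65 ± 0.07, adjusted p = 2.5e-10). Cdk1 and Tyms completed the list. Mki67 (log2 fold change -0.21 ± 0.10, adjusted p = 0.15), Mcm5 (log2 fold change -0.24 ± 0.18, adjusted p = 0.44) and Cdkn1a (log2 fold change -0.24 ± 0.05, adjusted p = 3.2e-04) were not called. Each of the 5 calls was lost without at least 1 of the 4 libraries, and the count was 1 without WT_IL4 replicate 1 and 3 without NKO_IL4 replicate 1. Without WT_IL4 replicate 1 Ccnd1 (-0.56) and Aurkb (-0.48) were not called, nor was Aurkb without NKO_IL4 replicate 1 (-0.59), or Bub1b without WT_IL4 replicate 2 (-0.69) or NKO_IL4 replicate 2 (-0.63). The effect at IL4 differed from that at vehicle for 0 members upward and 0 downward in the edgeR quasi-likelihood test (background 0.351% and 0.254%), with 1 member past an adjusted p of 0.05 when no fold was asked.

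After KLA most replication genes were higher in NKO. Of 13 replication genes 11 were higher and 0 lower (median 1.31), of 21 mitosis genes 5 were higher and 4 lower, and of 9 control genes 4 were higher and 1 lower. In all 20 members were higher and 5 lower, against a background of 21% and 19%. Mcm2 was at 9.11 and 9.24 CPM in NKO_KLA against 1.80 and 1.17 CPM in WT_KLA (log2 fold change 2.62 ± 0.31, adjusted p = 1.1e-10), Mcm7 at 7.82 and 6.48 CPM (log2 fold change 1.79 ± 0.31, adjusted p = 2.4e-06) and Mcm5 at 38.8 and 38.3 CPM against 11.8 and 12.5 CPM (log2 fold change 1.67 ± 0.20, adjusted p = 6.1e-07). Among the helicase genes, Mcm5 and Mcm6 in NKO_KLA lay above the WT_Veh libraries as well (Mcm6 104 and 92.2 CPM against 76.4 and 73.8 CPM). So did Pcna, Cdt1, Gins2 and Tyms. Ccnd1 was at 389 and 358 CPM against 78.8 and 73.7 CPM (log2 fold change 2.29 ± 0.07, adjusted p = 2.8e-31), and Foxm1 at 4.98 and 6.29 CPM against 1.80 and 1.67 CPM (log2 fold change 1.69 ± 0.32, adjusted p = 7.8e-06). Mki67 was lower, at 20.4 and 21.6 CPM against 113 and 107 CPM (log2 fold change -2.39 ± 0.11, adjusted p = 9.5e-18). Ube2c (-1.05), Ccnb2 (-0.84), Nusap1 (-0.60) and E2f8 (-1.11) were lower with it, while Tpx2 was higher (165 and 182 CPM, log2 fold change 0.86 ± 0.08, adjusted p = 1.0e-14). The call of Nusap1 was lost without any 1 of the 4 libraries compared (-0.51 without WT_KLA replicate 1, -0.68 without WT_KLA replicate 2, -0.70 without NKO_KLA replicate 1 and -0.51 without NKO_KLA replicate 2). Cdkn1a was at 1244 and 1313 CPM and just under the fold limit (log2 fold change -0.58 ± 0.05, adjusted p = 1.6e-15). Of the other replication genes 26 of 41 were higher and 0 lower, led by the polymerase genes Pold1 (2.87) and Pole (2.33). Of 46 other mitosis genes 14 were higher and 4 lower (median 0.41). Of 6 other inhibitors 2 were higher, among them Cdkn2d (1.91), and 2 lower, Cdkn1b (-1.87) and Cdkn1c (-1.70). Stroma markers summed to 14.3 and 11.7 CPM in NKO_KLA against 1.90 and 1.59 CPM in WT_KLA, with 3 of 5 called higher, and their part was not tested.

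The effect at KLA differed from that at vehicle for 23 members upward and 2 downward (background 19.9% and 17%), among them Ccnd1 (log2 difference 3.30 ± 0.10, adjusted p = 2.8e-31), Mcm5 (log2 difference 1.88 ± 0.26, adjusted p = 5.7e-06) and Mki67 (log2 difference -1.97 ± 0.15, adjusted p = 2.0e-12). Genotype, date and sex cannot be told apart here, because the NKO_KLA libraries had another date than WT_KLA and no Xist. Against KLA libraries of other tables, in the joint fit of 35 members, NKO_KLA had 25 members higher and 2 lower than KLA of the RGFP966 table, 25 higher and 3 lower than DMSO_KLA, and 8 higher and 10 lower than Pgc1b_flox_KLA, whose libraries also had 0 counts of Xist. Mki67 was lower in each of these, with log2 differences of -2.83, -2.60 and -1.60. Ccnd1 was 2.27, 2.89 and 1.74 and Mcm5 2.34, 1.80 and 1.14 in the same order.

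HDAC3 inhibition lowered part of the members further in the presence of KLA. With RGFP966 and KLA 20 members were lower than with KLA alone and 0 higher (background 9.54% lower and 15.8% higher), with a median of -0.68. Among them were genes that KLA itself had raised. Mki67 was at 52.4 and 44.3 CPM against 116 and 123 CPM (log2 fold change -1.31 ± 0.08, adjusted p = 5.4e-26), near the 45.4 and 49.6 CPM of vehicle. Tpx2 was at 25.1 and 31.1 CPM against 99.1 and 85.5 CPM (log2 fold change -1.71 ± 0.09, adjusted p = 1.6e-28), E2f8 at 5.82 and 4.80 CPM against 24.3 and 25.6 CPM (log2 fold change -2.23 ± 0.15, adjusted p = 2.8e-22) and Ccne1 at 3.76 and 3.38 CPM against 8.03 and 8.24 CPM (log2 fold change -1.19 ± 0.22, adjusted p = 4.0e-06). Genes that KLA had lowered fell again, Mcm5 to 1.77 and 1.20 CPM from 6.88 and 5.44 CPM (log2 fold change -2.03 ± 0.26, adjusted p = 2.3e-10) and Ccnd1 to 39.4 and 42.8 CPM from 65.7 and 58.5 CPM (log2 fold change -0.59 ± 0.08, adjusted p = 2.2e-09). Cenpe (3.02 and 1.73 CPM against 10.04 and 10.9 CPM, log2 fold change -2.14 ± 0.22, adjusted p = 4.6e-14) and the GINS gene Gins2 (1.62 and 1.95 CPM against 5.54 and 6.02 CPM, log2 fold change -1.69 ± 0.26, adjusted p = 7.2e-08) were lower as well. Tyms, Cdt1, Mcm6, Mcm7, Top2a, Ccnb2, Cdk1, Aurkb, Birc5, Ube2c, Nusap1 and Prc1 were the other members called. Outside the members, 13 of 46 other mitosis genes were lower and 2 higher (median -0.65). The 40 other replication genes tested went both ways, with 8 lower and 5 higher (median -0.05). Cdkn1a was not called, at 1926 and 1764 CPM against 2209 and 2302 CPM (log2 fold change -0.29 ± 0.05, adjusted p = 4.0e-06). Some of these members averaged under 5 CPM in both groups, and with only genes of at least 5 CPM tested the count was 13, of which 1 was higher. RGFP966_KLA replicate 2 had a later date stamp than the rest, and leaving it out gave 21 calls. Ccnd1 was not called without KLA replicate 1 (-0.51) or RGFP966_KLA replicate 1 (-0.53). Birc5 was not called without any 1 of the 4 libraries (-1.74 to -0.97), Cdk1 (-0.71 and -0.62), Aurkb and Nusap1 not without KLA replicate 2 or RGFP966_KLA replicate 1, Ccnb2 and Prc1 not without RGFP966_KLA replicate 1, and Mcm6 and Cdt1 not without KLA replicate 1. Birc5, Cdk1 and Aurkb were not called by DESeq2 either.

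TBK1 inhibition moved members in both directions. With TBK1i and KLA 9 members were higher than with DMSO and KLA and 7 lower (background 15% and 18.3%), shares near those of all genes. By role 6 mitosis genes were higher and 2 lower (median 0.56), 1 replication gene was higher and 3 lower (median -0.21), and 2 control genes were higher and 2 lower (median 0.05). Of the other mitosis genes 8 of 46 were higher and 2 lower, and of the other replication genes 3 of 40 were higher and 10 lower. Ccnd1 was at 5.01 and 4.62 CPM against 50.1 and 46.8 CPM (log2 fold change -3.32 ± 0.14, adjusted p = 7.1e-125). It was the lowest Ccnd1 level of the 22 groups. Tpx2 was at 8.02 and 5.53 CPM against 50.5 and 51.2 CPM (log2 fold change -2.89 ± 0.14, adjusted p = 6.4e-99) and Ccne1 at 1.60 and 2.37 CPM against 13.9 and 10.99 CPM (log2 fold change -2.66 ± 0.26, adjusted p = 3.2e-23), so that both lay below their vehicle levels of 16.3 and 13.9 CPM and 3.92 and 2.44 CPM. Mcm6 was at 13.6 and 11.5 CPM against 77.02 and 71.5 CPM (log2 fold change -2.56 ± 0.10, adjusted p = 2.2e-132), Cdt1 at 4.21 and 3.16 CPM against 20.6 and 22.1 CPM (log2 fold change -2.52 ± 0.18, adjusted p = 1.3e-43) and Pcna at 45.3 and 47.8 CPM against 124 and 123 CPM (log2 fold change -1.41 ± 0.07, adjusted p = 1.3e-89). Mcm5 (log2 fold change -0.30 ± 0.18, adjusted p = 0.14) and Cdkn1a (2447 and 2460.2 CPM against 3218 and 3265 CPM, log2 fold change -0.40 ± 0.03, adjusted p = 2.6e-32) were not called.

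Mki67 went the other way, at 414 and 406 CPM against 112 and 131 CPM and 74.9 and 80.8 CPM in vehicle (log2 fold change 1.75 ± 0.05, adjusted p = 6.3e-264). Top2a (18.05 and 20.5 CPM against 7.07 and 9.14 CPM, log2 fold change 1.25 ± 0.15, adjusted p = 1.5e-15) and E2f8 (63.8 and 68.01 CPM against 26.96 and 31.01 CPM, log2 fold change 1.18 ± 0.10, adjusted p = 5.0e-34) were also higher. Cdc20, Aurka, Kif20a, Prc1, Mcm4 and Foxm1 completed the higher set. Outside the members Rbl1 was at 6.42 and 4.62 CPM against 185 and 186 CPM (log2 fold change -5.05), and Timeless, Pttg1 and Ccnd2 were lower, with log2 fold changes of -4.09, -2.996 and -2.36. KLA had raised each of them in WT. Without TBK1i_KLA replicate 2 the counts were 6 higher and 7 lower, as the calls of Kif20a (0.59), Prc1 (0.48) and Mcm4 (0.51) were lost. Without DMSO_KLA replicate 1 those of Mcm4 (0.34) and Foxm1 (0.57) were lost, and that of Foxm1 also without TBK1i_KLA replicate 1 (0.48).

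Macrophages of the Pgc1b table differed by Cre status after KLA, and 0 members were called at vehicle. At vehicle 0 members were higher and 0 lower in Pgc1b_flox_Cre in the edgeR quasi-likelihood test (background 0.164% and 0.139%), and 1 passed an adjusted p of 0.05 when no fold was asked. Mki67 was at 166 and 178 CPM against 251 and 197 CPM (log2 fold change -0.38 ± 0.10, adjusted p = 0.11), Mcm5 at 60.2 and 55.1 CPM (log2 fold change -0.07 ± 0.11, adjusted p = 0.9) and Ccnd1 at 434 and 442 CPM (log2 fold change -0.21 ± 0.06, adjusted p = 0.11). After KLA 32 members were higher and 2 lower (background 13.2% and 12.9%), with a median of 1.41, and by role 19 of 21 mitosis genes, 7 of 13 replication genes and 6 of 9 control genes were higher. Of 6 osteoclast markers tested 4 were higher too (7 summed to 678 and 701 CPM against 305 and 322 CPM), and of 8 macrophage markers 1 was higher and 3 lower (8100.5 and 8168 CPM against 9556 and 9424 CPM). Their part in the result was not tested.

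Cdc20 was at 8.30 and 8.24 CPM in Cre against 1.04 and 1.26 CPM in flox cells (log2 fold change 2.85 ± 0.33, adjusted p = 3.4e-09), Prc1 at 20.1 and 22.1 CPM against 3.12 and 3.14 CPM (log2 fold change 2.75 ± 0.20, adjusted p = 2.8e-14) and Rrm2 at 32.4 and 27.6 CPM against 3.54 and 5.02 CPM (log2 fold change 2.83 ± 0.17, adjusted p = 4.7e-16). All 3 stayed below their Pgc1b_flox_Veh levels. E2f8 was at 95.8 and 85.4 CPM against 14.9 and 16.8 CPM (log2 fold change 2.52 ± 0.12, adjusted p = 9.9e-19), and Mki67 at 215 and 257 CPM against 60.4 and 69.2 CPM (log2 fold change 1.87 ± 0.11, adjusted p = 4.3e-11). The vehicle levels of Mki67 were 251 and 197 CPM in Pgc1b_flox_Veh and 166 and 178 CPM in Pgc1b_flox_Cre_Veh. Mcm2 (log2 fold change 2.05 ± 0.20, adjusted p = 7.4e-11), Mcm5 (log2 fold change 1.08 ± 0.14, adjusted p = 4.2e-08) and Ccnd1 (log2 fold change 0.67 ± 0.07, adjusted p = 2.4e-10) were higher as well. The members that were lower were Tpx2 (33.6 and 33.3 CPM against 65.6 and 64.2 CPM, log2 fold change -0.96 ± 0.11, adjusted p = 9.7e-09) and Cdt1 (-1.03), and Cdkn1a was not called (4071 and 3912 CPM against 3603 and 3496 CPM, log2 fold change 0.17 ± 0.05, adjusted p = 0.011). Of the other mitosis genes 39 of 46 were higher and 1 lower, Pttg1 (-1.504), and Ccnd2 and Rbl1 were lower (-1.43 and -1.74). Compared with vehicle, the effect of Cre differed upward for 32 members and downward for 2 (background 11.6% and 11.2%), with log2 difference 3.11 ± 0.20, adjusted p = 1.3e-14 for Rrm2. The column names of the Pgc1b_flox_Cre_KLA libraries state no time, and the labels give 6 h.

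Across the 22 groups the summed levels of mitosis and of replication genes were highest in WT_RANKL. The sum of all 35 members that share a transcript was highest in Pgc1b_flox_Cre_KLA (5546 and 5442 CPM), where Cdkn1a alone was at 4175 and 4038 CPM. After scaling all 44 libraries together on shared transcripts, the summed level of 17 mitosis genes was 953 and 1033 CPM in the WT_RANKL libraries and 979 and 868 CPM in Pgc1b_flox_Veh, which overlapped. Pgc1b_flox_Cre_Veh (762 and 761 CPM), Pgc1b_flox_Cre_KLA (598 and 641 CPM) and TBK1i_KLA (518 and 513 CPM) came next, and the last was mostly Mki67 (449 and 439.8 CPM). The vehicle cells of the other tables lay at 267 and 210.2 CPM (WT_Veh), 254 and 285 CPM (Veh) and 327 and 325 CPM (DMSO_Veh), of which the first 2 overlapped. At the bottom were NKO_IFNb (144 and 143 CPM) and RGFP966_KLA (116 and 112 CPM). The sum in WT_KLA (309 and 298 CPM) was above that in WT_Veh, and Mki67 (119 and 113 CPM) and Tpx2 (101 and 101 CPM) were the most abundant of its 17 genes there.

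**Figure D4:**
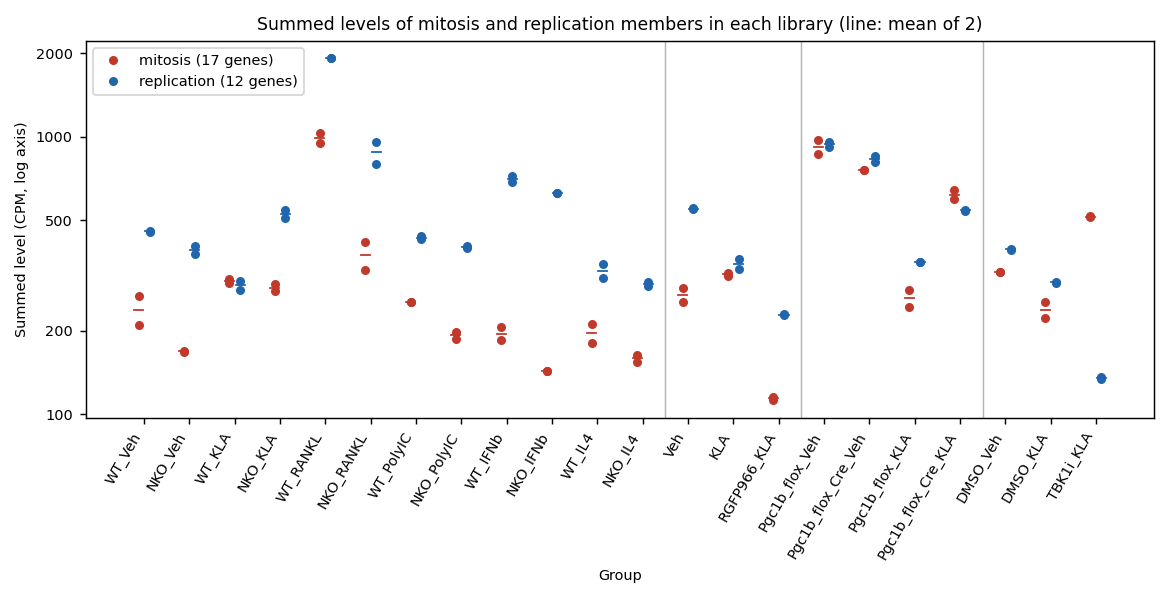
Summed CPM (log axis) of 17 mitosis genes and of 12 replication genes in each of the 44 libraries by group, scaled together, with a point for each library and a short line for the group mean. WT_RANKL is highest for both sums, RGFP966_KLA is lowest for mitosis, and TBK1i_KLA is lowest for replication.

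The sum of 12 replication genes was 1928 and 1923 CPM in WT_RANKL, well above 957 and 922 CPM in Pgc1b_flox_Veh and 963 and 798 CPM in NKO_RANKL, which overlapped each other. WT_IFNb (722 and 686 CPM) and NKO_IFNb (629 and 627 CPM) stood above every vehicle group outside the Pgc1b table. The lowest were RGFP966_KLA (228 and 229 CPM) and TBK1i_KLA (137 and 134 CPM). Per length of transcript, in RPKM, CPM divided by the transcript length in kilobases, the most abundant members of WT_Veh were Cdkn1a (124), Pcna (114) and Ccnd1 (33.3), and the least abundant Cenpf (0.673), Chek1 (0.647) and Mybl2 (0.386). Groups of different tables and dates are set side by side here with no test.

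**Figure D5:**
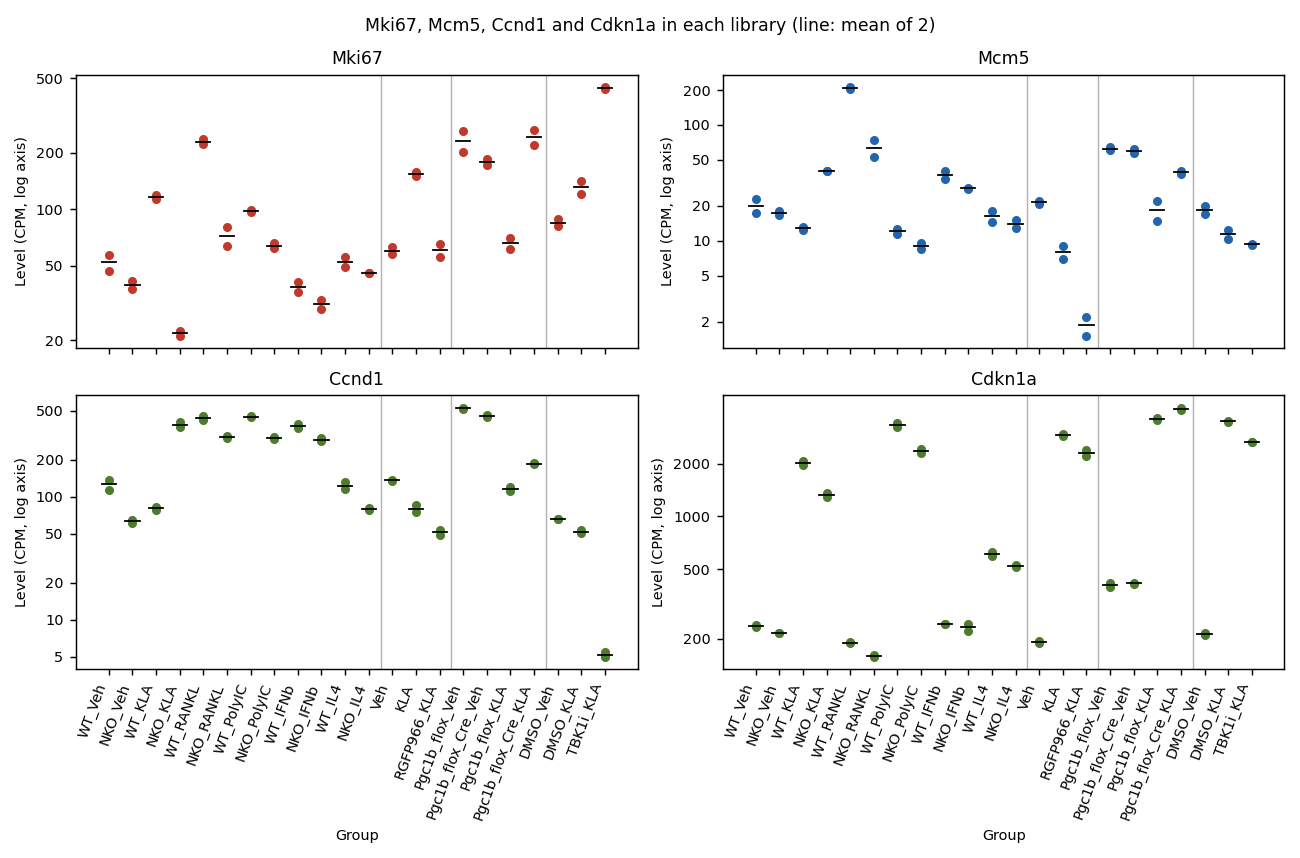
CPM (log axis) of Mki67, Mcm5, Ccnd1 and Cdkn1a in each library of the 22 groups, scaled together, with a point for each library and a short line for the group mean. Mki67 is highest in TBK1i_KLA and lowest in NKO_KLA, Mcm5 runs from WT_RANKL down to RGFP966_KLA, Ccnd1 is lowest in TBK1i_KLA, and Cdkn1a is high in every KLA and PolyIC group.

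The genes Mki67, Mcm5, Ccnd1 and Cdkn1a ordered the groups differently. Mki67 on this common scale was 449 and 439.8 CPM in TBK1i_KLA, followed by Pgc1b_flox_Cre_KLA (221 and 265 CPM), Pgc1b_flox_Veh (261 and 203 CPM) and WT_RANKL (222 and 238 CPM), which overlapped one another, and was lowest in NKO_KLA (21.1 and 22.4 CPM). Mcm5 ran from 213 and 203 CPM in WT_RANKL to 2.21 and 1.51 CPM in RGFP966_KLA. Ccnd1 was highest in Pgc1b_flox_Veh (529 and 519 CPM), ahead of Pgc1b_flox_Cre_Veh (449 and 459 CPM), WT_PolyIC (450.2 and 444 CPM) and WT_RANKL (422 and 455 CPM), the last 3 of which overlapped, and was lowest in TBK1i_KLA (5.43 and 5.01 CPM). Cdkn1a separated the groups by ligand: the 10 groups with KLA or PolyIC had at least 1289 CPM, both IL4 groups lay between 528 and 515 CPM in NKO and 627 and 594 CPM in WT, and every other library lay below these.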

How the data were processed

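RNA-seq was made from 44 libraries of mouse bone marrow-derived macrophages, 2 for each of 22 groups. The authors aligned reads to mm10 with STAR and counted strand-specific reads in exons per gene with HOMER, keeping 1 transcript per gene. Tool versions are not given in the sources used here. The deposited values are raw read counts in 4 tables of 24940 genes, with totals of 8323493 to 16783155 per library, and no value column was left unused. Groups came from the labels.

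Each table was fitted alone with edgeR 4.0.16 in R 4.3.3 (TMM normalization, filterByExpr, robust quasi-likelihood), all groups of the table together, so that 12196 to 13407 genes were tested. A call needed a Benjamini-Hochberg adjusted p under 0.05 and a fold change over 1.5, and SEs were derived from the F statistics. Differences between effects were contrasts in the same fit. The study used DESeq2, which was run as an alternative (1.42.0), as were DESeq2's size factors, no filter, a mean of at least 5 CPM, a call on adjusted p alone, fits of only the compared groups, a replicate block and the omission of each library. A joint fit of all libraries on 12468 transcripts shared by the tables was added after the data were seen. On simulated counts 85 to 94 of 100 genes changed 2-fold and 97 to 99 of 100 changed 4-fold were called, in tests of 11768 to 12883 genes. Libraries of a group differed beyond sampling noise in a chi-square test of their counts, and their log2 CPM correlated across genes at 0.992 or above.

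The 43 members, the other gene lists and the marker lists were chosen with earlier results of these data known. All members may be named. Full statistics went to at most 3 genes per role with the largest change and at least 5 CPM in a compared group, and to Mki67, Mcm5, Ccnd1 and Cdkn1a throughout, and at most 2 called genes per direction were taken from each other list. Ccnb1 at IFNb, below that level, was given in full after its values were seen, as the only mitosis gene called there. Gene positions and promoter windows came from RefSeq, and figures were drawn with matplotlib 3.10.9.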

Additional observations from a re-analysis of the deposited data

Results flagged for a closer look

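The following differences between effects passed the test of the difference itself, which sets the genotype's effect under a ligand against its effect at vehicle. For NCoR deletion at RANKL, 29 members were more negative, with log2 differences of -1.24 for Mki67, -1.94 for Bub1, -1.49 for Mcm5 and -2.26 for Ccne1. Ligand, date, time and any difference in culture cannot be told apart in these values. At poly I:C, 4 members were more positive and 1 more negative, with Cdk1 at 1.19, Mcm3 at 0.69 and Ccne1 at -1.15. Cdk1 (0.97 and 1.11) and Mcm3 (0.48 and 0.64) were not called without WT_PolyIC replicate 2 or NKO_PolyIC replicate 1. At IFNb 1 member, Ccnd1, was more positive (0.64), and it was not called without WT_Veh replicate 2 (0.50).

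At KLA the effect of NCoR deletion was more positive for 23 members and more negative for 2, with log2 differences of 2.55 for Bub1b, 1.88 for Mcm5, 3.09 for Rrm2, 3.30 for Ccnd1 and -1.97 for Mki67. Genotype, date and sex cannot be told apart in these values. In the WT_KLA libraries Bub1b had only 2 and 3 counts and Rrm2 6 and 4. In the Pgc1b table the effect of Cre at KLA was more positive for 32 members and more negative for 2, with Mki67 at 2.25, Cdc20 at 3.04, Mcm5 at 1.15, Rrm2 at 3.11, E2f8 at 2.97 and Ccnd1 at 0.88.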

How the results depend on the processing

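With 2 libraries a group, counts near the fold limit moved most. Under a call on adjusted p alone, the count was 15 at IL4 in WT, 26 for NKO at vehicle, 5 at poly I:C and 16 at IFNb, 1 for Cre at vehicle and 1 for the NKO effect at IL4 against vehicle. With only the compared groups fitted NKO at vehicle gave 9. NKO at poly I:C gave 2 with DESeq2's size factors, with a mean of at least 5 CPM and with DESeq2, and the NKO effect at poly I:C gave 3 with DESeq2. The 5 CPM filter, which tests fewer members, left 22 calls for KLA in the RGFP966 table and 13 for RGFP966 with KLA. With DESeq2's size factors the highest group was 9.30 times the lowest for the mitosis sum and 14.5 times for the replication sum, against 8.70 and 14.2 with TMM.

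Leaving out 1 library gave 3 to 13 calls at IL4 in WT, 3 to 19 for NKO at vehicle, 1 to 2 at poly I:C, 1 to 8 at IFNb and 1 to 5 at IL4, 13 to 19 for TBK1i, 2 to 8 for the NKO effect at poly I:C and 0 to 1 at IFNb. Without TBK1i_KLA replicate 2, where 13 were called, the lower members outnumbered the higher ones. Replicate numbers did not pair the libraries, since same-numbered deviations correlated at -0.083 to 0.072. With a replicate block the counts were 13 for NKO at vehicle, 9 at IFNb and 7 at IL4, and the same as without it in every other comparison.

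In the joint fits added after the data were seen, 17 members were called for RANKL against Pgc1b_flox_Veh, and for NKO_KLA against Pgc1b_flox_KLA 18 were called, 8 higher and 10 lower. The direction of single members turned only in these fits. For NKO_KLA, Ccnb2 was 1.13, Ube2c 0.81 and Nusap1 0.89 against KLA of the RGFP966 table and 0.77, 0.62 and 0.66 against DMSO_KLA, while Bub1b was -0.11, Cenpe -0.25, Rrm2 -0.030 and Foxm1 -0.59 against Pgc1b_flox_KLA. For WT_RANKL, Pcna was -0.27 against Veh, Ccnb2 -0.056 against DMSO_Veh, and against Pgc1b_flox_Veh Mki67 was -0.011, Ccnb2 -1.41, Cdc20 -0.33, Plk1 -0.068, Cenpe -0.34, Cenpf -0.94, Tpx2 -0.12, Ube2c -0.48, Nusap1 -0.55, Pcna -0.27, Foxm1 -0.0071 and Ccnd1 -0.26. For WT_KLA, Mki67 was -0.99, Ube2c -1.17 and Ccne1 -1.11 against Pgc1b_flox_Veh, and Ccnd1 was 0.29 against DMSO_Veh. The cause was not tested. Over all members and comparisons, the other normalizations, filters, fits and call rules took 40 calls away and added 118, and leaving out a library took 165 away and added 98. Depth limits the low members: Cdc6 and Chek1 had at most 2 counts in a WT_PolyIC library. In the WT_KLA libraries Bub1b had 2 and 3 counts, Rrm2 6 and 4 and Cdc20 6 and 1.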
